A study of Homo sapiens with 6 samples.

Results

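The unfolded protein response and the chaperones of the endoplasmic reticulum (ER) were described in HCT116 cells through 32 genes. These were named by symbol for their role as sensors, folding factors or degradation factors of the ATF6 and XBP1 arms. Measured values were not the rule, but the list was chosen with earlier results of these data known. All 32 were found among the 60662 genes with a value, and 31 of them passed the filter on low values. DERL3, a derlin of the ER membrane, did not pass. HCT116 is an established human colorectal carcinoma line. The cells were stably transduced by lentivirus with a nontarget control shRNA (shCtrl, which the labels call wild type) or with shRNA2 against the long non-coding RNA GMDS-AS1 (GMDS-AS1 KD). Poly-A selected RNA of 3 biological replicates per group was sequenced, and the authors deposited TPM, a level per transcript normalised to transcript length and to the library total. Both groups carried an shRNA vector and were kept in the same medium, and a single shRNA sequence stood for the knockdown.

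Proteins that enter the ER are folded there by chaperones of the HSP70 and HSP90 families, by lectin chaperones that hold glycoproteins and by disulfide isomerases, and proteins that fail to fold are moved back to the cytosol for degradation. When unfolded proteins gather, the membrane sensors IRE1, PERK and ATF6 are activated. ATF6 is cut to release a transcription factor, IRE1 splices the XBP1 messenger into the form that encodes another, and both induce chaperone and degradation genes, while PERK slows translation and raises ATF4.

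The values were compared on a scale of log2(TPM + 1) after the libraries had been scaled by a trimmed mean of log ratios. Each change below is a difference on that scale, KD minus shCtrl, with its standard error (SE), and each adjusted p is from limma with the Benjamini-Hochberg adjustment over the 16901 genes tested. This scale understates the change of genes with few TPM. The log2 scaling factors of the KD libraries differed by -0.25 from those of the shCtrl libraries. Values were divided by these factors, which raised KD against shCtrl. The median change of all genes was -0.002 with scaling and -0.20 in the TPM as deposited. The values given per library are TPM as deposited. GMDS-AS1, listed as GMDS-DT, was measured at 1.66, 2.21 and 1.34 TPM in shCtrl and at 0.88, 0.91 and 0.79 TPM in GMDS-AS1 KD, a change of -0.41 (SE 0.137, adjusted p = 0.0407). Between 24381 and 26402 genes had a value above 0 in a library. Of 5 epithelial markers, EPCAM was present at 141 to 165 TPM in all 6 libraries and CDH1 at 23.8 to 33.9 TPM, VIL1 stayed under 0.5 TPM, and the keratins KRT8 and KRT18 were lower in KD (changes -1.46 and -1.83), whose part in the results below was not tested. Of 4 markers of other cells, PTPRC was at 0, COL1A2 and PECAM1 were at most 0.40 TPM, and COL1A1 lay between 10.04 and 14.42 TPM.

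The genes fell more often than they rose. Of the 31 tested, 17 (54.8%) were lower in GMDS-AS1 KD, 6 (19.4%) were higher and 8 did not pass the threshold. Over all genes tested, 54.3% were called, 25.9% lower and 28.5% higher. In bulk RNA, fewer cells that express a gene and less of its RNA per cell cannot be told apart. The median change of the 31 genes was -0.19. Only SELENOS was called with a change of at least 2-fold, and it was lower, where 7.17% of all genes were so called in either direction and 4.24% as lower. In the TPM as deposited, 26 genes were lower and 3 higher with a median of -0.43, where 40.3% of all genes were lower and 16.3% higher. Under all 4 scalings tried, 16 genes were lower and 3 were higher, and the corresponding shares of all genes were 20.5% and 16.3%. The 3 genes that rose under each scaling were SDF2L1, EIF2AK3 and ERO1A. After scaling, the groups did not overlap for 18 genes that were lower and 6 that were higher in KD, where this held for 30.3% and 31.7% of all genes. In the TPM as deposited it held for 26 lower and 3 higher genes, against 44.9% and 18.8% of all genes.

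Together the 32 genes held 3874, 3871 and 3775 TPM in shCtrl and 2898, 2889 and 2953 TPM in GMDS-AS1 KD. These sums were 0.391%, 0.390% and 0.381% of the TPM in shCtrl and 0.292%, 0.291% and 0.297% in KD, without overlap between the groups. These are TPM as deposited, in which the median change of all genes was -0.20, so the fall of the sum is not set apart from that shift. The 5 genes with the highest level in shCtrl were CALR, P4HB, HSPA5, HSP90B1 and PDIA3, which held 57.2% to 57.8% of the sum in shCtrl and 59.2% to 59.5% in KD. With the trimmed mean scaling, HSPA5 and HSP90B1 were called lower and P4HB higher, while CALR and PDIA3 were not called. The levels ran over a wide range, from 513.6 ± 7.93 TPM (SD, n = 3) for CALR to 5.15 ± 0.539 TPM for EIF2AK3 in shCtrl, among the genes tested.

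**Figure D1:**
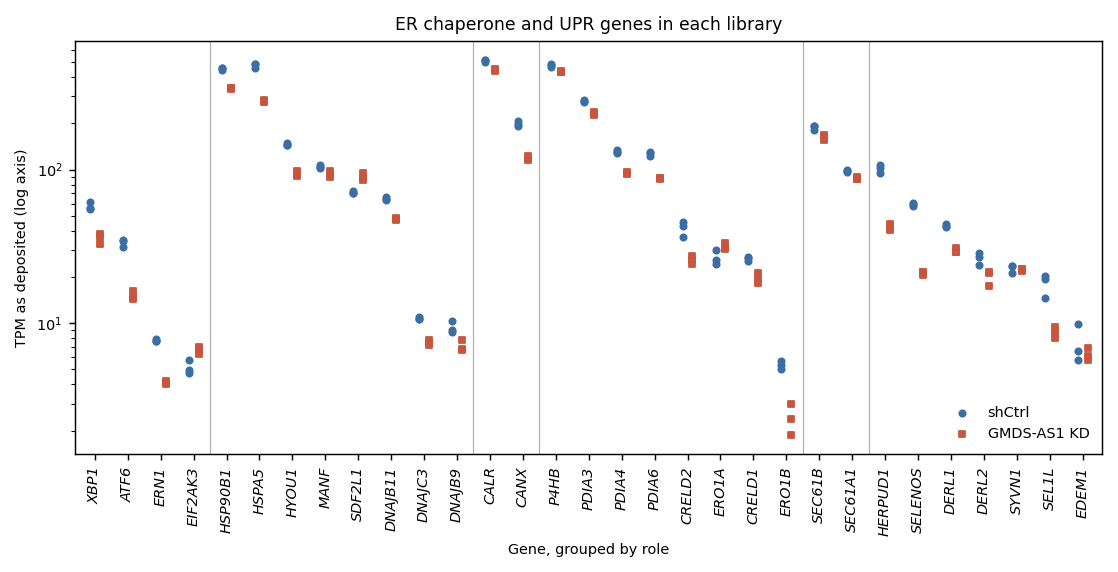
TPM as deposited (log axis) of the 31 tested genes in each of the 3 shCtrl (circles) and 3 GMDS-AS1 KD (squares) libraries, grouped by role with vertical lines between the roles and sorted by level within each. The groups do not overlap for 29 genes, of which 26 are lower and 3 (EIF2AK3, SDF2L1 and ERO1A) higher in KD.

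The promoters of several of these genes hold the ER stress response element (ERSE), CCAAT and CCACG set 9 bases apart, or its variant ERSE-II, ATTGG and CCACG set 1 base apart, which ATF6 and XBP1 are known to bind. Both strands were searched in the RefSeq promoter windows of GRCh38.p14, each from 250 bases before to 50 bases after a start. ERSE was found in 27 of 35093 windows (0.0769%) and ERSE-II in 19 windows (0.0541%). By gene, this was 25 of 27305 genes (0.0916%) for ERSE and 19 genes (0.0696%) for ERSE-II. Of the 29 listed genes with a window, 8 held ERSE (HSPA5, HSP90B1, CALR, CANX, PDIA6, CRELD2, ERO1B and XBP1) and 3 held ERSE-II (HERPUD1, HYOU1 and SDF2L1). The list was named for the ATF6 and XBP1 arms, so these matches are not an independent result. The windows of DERL1, DERL3 and PDIA3 were not analysed here. The stretches below are shown because they belong to the genes on which the results turn, with the matched bases of each element in capitals, each read 5′ to 3′ on the strand that carries the element in this orientation.
HSPA5: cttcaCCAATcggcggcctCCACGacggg
HSP90B1, distal: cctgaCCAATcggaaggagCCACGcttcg
HSP90B1, proximal: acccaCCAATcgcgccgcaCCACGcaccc
CALR: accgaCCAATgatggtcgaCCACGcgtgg
CANX: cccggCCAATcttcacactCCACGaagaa
XBP1: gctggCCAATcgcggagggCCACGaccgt
CRELD2: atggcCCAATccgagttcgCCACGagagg
HERPUD1, ERSE-II: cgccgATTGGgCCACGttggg
HYOU1, ERSE-II: tactcATTGGaCCACGtccca
SDF2L1, ERSE-II: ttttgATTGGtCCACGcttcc

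On GRCh38.p14 these stretches lay at chr9:125241386-125241414 (minus strand, HSPA5), chr12:103930211-103930239 (plus) and chr12:103930316-103930344 (minus, both HSP90B1), chr19:12938379-12938407 (minus, CALR), chr5:179698773-179698801 (plus, CANX) and chr22:28800598-28800626 (minus, XBP1). The others lay at chr22:49918549-49918577 (minus, CRELD2), chr16:56932020-56932040 (plus, HERPUD1), chr11:119057269-119057289 (plus, HYOU1) and chr22:21642109-21642129 (minus, SDF2L1). The far end of the element lay 66 bases before the start of HSPA5, 52 before that of XBP1, 117 before that of HERPUD1 and 188 before that of SDF2L1. HYOU1 held a further ERSE-II 185 bases before its start. It also held the UPRE core TGACGTGG, known to be bound by XBP1, which overlaps that further ERSE-II and was present in 0.729% of all windows. HERPUD1 held the CARE core TTGCATCA, an element bound by ATF4 and present in 0.866% of all windows.

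Of the 11 genes with ERSE or ERSE-II, 9 were lower in GMDS-AS1 KD, SDF2L1 was higher and CALR did not pass the threshold, with a median change of -0.43 (all genes, 25.9% lower and 28.5% higher). A match of letters is a description of the window and was not tested as a site. Among the 33 other genes with either element in a window, 20 passed the filter, of which 5 were higher and 5 lower, with a median of 0.02. One of these, ALG12, an ER mannosyltransferase, shares the very element shown for CRELD2, which stands 80 bases before the start of CRELD2 and 134 bases before that of ALG12. ALG12 was measured at 3.07, 4.39 and 2.52 TPM in shCtrl and at 8.94, 10.11 and 7.17 TPM in KD (change 1.39, adjusted p = 0.000725 by limma), while CRELD2 fell. The exons of this pair also share 168 bases on opposite strands, and whether counting used strand is not given in the sources used here.

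The sensors moved in different directions. ATF6, the sensor that becomes a transcription factor (chr1:161766294-161964070, plus strand, GENCODE v29 on GRCh38, as for all gene positions here), was measured at 34.26, 34.89 and 31.44 TPM in shCtrl and at 14.46, 14.74 and 16.24 TPM in KD. Its change of -0.86 (SE 0.0583, adjusted p = 2.94e-05) was the largest fall among the sensors. ERN1, which encodes IRE1, was measured at 7.87, 7.71 and 7.66 TPM in shCtrl and at 4.05, 4.08 and 4.21 TPM in KD (change -0.57, SE 0.0672, adjusted p = 0.000436). For both genes every KD library lay far under every shCtrl library. XBP1, whose messenger IRE1 splices, was measured at 56.11, 61.54 and 55.82 TPM in shCtrl and at 37.91, 33.02 and 36.17 TPM in KD (change -0.44, SE 0.0577, adjusted p = 0.000712). The table gives 1 value per gene, so the spliced and unspliced forms of XBP1 were not told apart.

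EIF2AK3, which encodes PERK (chr2:88556741-88627576, minus strand), went the other way. It was measured at 4.73, 5.76 and 4.97 TPM in shCtrl and at 6.97, 6.35 and 6.66 TPM in KD, so that the lowest KD library lay above the highest shCtrl library. Its change was 0.53 (SE 0.0867, adjusted p = 0.00203), and 0.32 in the TPM as deposited. Within a library, the level of EIF2AK3 relative to ERN1 was 0.601, 0.747 and 0.649 in shCtrl and 1.72, 1.56 and 1.58 in KD. The ratio of EIF2AK3 to ATF6 rose from 0.154 ± 0.0140 to 0.441 ± 0.0370 (SD, n = 3). Ratios within a library do not depend on the scaling, and the pairs were chosen after the values had been seen, so they are given without a test.

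HSPA5, the ER HSP70 chaperone BiP that binds the sensors at rest (chr9:125234853-125241330, minus strand), was measured at 485.71, 485.70 and 461.16 TPM in shCtrl and at 280.78, 275.48 and 283.15 TPM in KD. Every KD library lay far under every shCtrl library, with a change of -0.52 (SE 0.0230, adjusted p = 4.84e-06). HSP90B1, the ER HSP90 known as GRP94, was measured at 460.02, 461.86 and 447.50 TPM in shCtrl and at 340.73, 336.92 and 337.50 TPM in KD (change -0.18, SE 0.0210, adjusted p = 0.000356). Although both genes carry ERSE, HSPA5 fell further than HSP90B1: their ratio was 1.06, 1.05 and 1.03 in shCtrl and 0.824, 0.818 and 0.839 in KD. HYOU1, the large HSP70 that exchanges the nucleotide of BiP, was measured at 144.88, 148.21 and 145.60 TPM in shCtrl and at 91.35, 93.00 and 98.10 TPM in KD (change -0.39, SE 0.0322, adjusted p = 8.11e-05). The ratio of HYOU1 to HSPA5 moved little, from 0.306 ± 0.00879 to 0.336 ± 0.0106 (SD, n = 3).

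The J-domain proteins deliver clients to BiP and start its ATP cycle. DNAJB11 (ERdj3) had 64.8 ± 1.92 TPM in shCtrl and 47.7 ± 0.522 TPM in KD (SD, n = 3), a change of -0.19 (adjusted p = 0.00275 by limma). DNAJB11 shares 451 exon bases on the same strand with the gene AC068631.2, whose change was -0.66. DNAJC3 (p58IPK), which also restrains PERK, had 10.8 ± 0.173 and 7.51 ± 0.276 TPM (change -0.25, adjusted p = 0.0135 by limma), and with median centring its adjusted p was 0.0502. DNAJB9 (ERdj4), which brings BiP to IRE1, had 9.40 ± 0.875 and 7.09 ± 0.604 TPM. Its change of -0.14 did not pass (adjusted p = 0.224 by limma, 95% interval -0.35 to 0.07), and its groups overlapped after scaling, while it was called lower in the TPM as deposited (-0.36, adjusted p = 0.0135 by limma).

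SDF2L1, a partner of DNAJB11 in the BiP cycle (chr22:21642261-21644298, plus strand), rose. It was measured at 72.99, 70.38 and 70.79 TPM in shCtrl and at 85.23, 87.56 and 94.39 TPM in KD, so that the 3 KD libraries lay above the 3 shCtrl libraries. The change was 0.56 (SE 0.0418, adjusted p = 4.78e-05), and 0.31 in the TPM as deposited. The level of SDF2L1 relative to DNAJB11 was 1.09, 1.09 and 1.12 in shCtrl and 1.76, 1.85 and 1.99 in KD. MANF, an ER-resident factor that binds BiP, had 104.4 ± 2.99 TPM in shCtrl and 93.6 ± 4.35 TPM in KD (SD, n = 3). Its change was 0.09 (95% interval -0.02 to 0.20, adjusted p = 0.146 by limma) with the trimmed mean scaling. MANF was called lower in the TPM as deposited (-0.16, adjusted p = 0.0187 by limma) and higher with median centring (0.14, adjusted p = 0.0405 by limma).

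**Figure D2:**
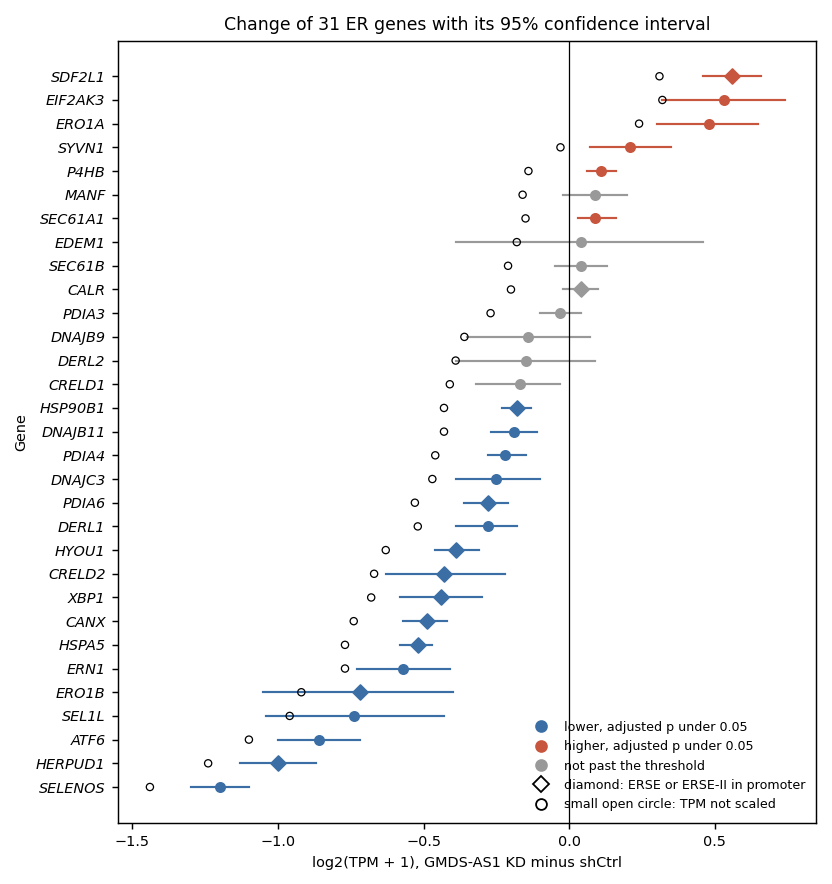
Difference in log2(TPM + 1), GMDS-AS1 KD minus shCtrl, for the 31 tested genes with its 95% confidence interval (filled symbols), beside the difference in TPM as deposited (small open circles); diamonds mark genes with ERSE or ERSE-II in a promoter window. Blue marks 17 genes called lower, red 6 called higher and grey 8 not called; of the red genes, SYVN1, P4HB and SEC61A1 lie under 0 without scaling, and of the 11 diamonds 9 are blue.

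The lectin chaperones hold newly made glycoproteins. CANX, the membrane-bound calnexin, was measured at 198.26, 205.81 and 191.92 TPM in shCtrl and at 116.09, 117.51 and 122.00 TPM in KD (change -0.49, SE 0.0309, adjusted p = 2.09e-05). CALR, its soluble counterpart calreticulin, was the most abundant of the genes in both groups. It was measured at 521.11, 514.49 and 505.32 TPM in shCtrl and at 437.72, 450.67 and 448.38 TPM in KD. Its change was 0.04 (95% interval -0.02 to 0.10, adjusted p = 0.189 by limma) with the trimmed mean scaling. CALR was called lower in the TPM as deposited (-0.20, adjusted p = 0.000386 by limma) and higher with median centring (0.09, adjusted p = 0.0195 by limma). The ratio of CALR to CANX was 2.63, 2.50 and 2.63 in shCtrl and 3.77, 3.84 and 3.68 in KD. Both genes hold ERSE in a promoter window.

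Of the 8 genes of disulfide bond formation, 4 were lower and 2 higher (25.9% and 28.5% over all genes), ERO1A under each scaling and P4HB only with trimmed mean scaling or median centring. PDIA4 and PDIA6, disulfide isomerases that act beside BiP, were both lower. PDIA4 had 131.3 ± 2.94 TPM in shCtrl and 94.9 ± 0.957 TPM in KD (change -0.22, adjusted p = 0.000603 by limma, SD, n = 3). PDIA6 had 127.2 ± 4.33 and 87.8 ± 0.748 TPM (change -0.28, adjusted p = 0.000252 by limma), and it shares 1033 exon bases on opposite strands with ATP6V1C2, whose change was -1.45. PDIA3, the isomerase that works with CALR and CANX on glycoproteins, had 279.6 ± 4.4 and 231.0 ± 6.44 TPM. Its change of -0.03 did not pass (95% interval -0.10 to 0.04, adjusted p = 0.436 by limma), while in the TPM as deposited it was called lower (-0.27, adjusted p = 0.000258 by limma). Its listed pseudogene PDIA3P1 reached 1.22% of its level. P4HB, the founding protein disulfide isomerase, had 478.5 ± 12.2 and 434.9 ± 5.34 TPM. It was called higher (change 0.11, adjusted p = 0.00620 by limma) with the trimmed mean scaling and lower (change -0.14, adjusted p = 0.00413 by limma) in the TPM as deposited.

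The oxidases ERO1A and ERO1B, which pass oxidising power to the isomerases, moved apart. ERO1A (chr14:52639916-52695900, minus strand) was measured at 25.83, 29.85 and 24.31 TPM in shCtrl and at 33.11, 30.39 and 31.05 TPM in KD (change 0.48, SE 0.0739, adjusted p = 0.00159). The groups did not overlap, although the highest shCtrl library and the lowest KD library were close. ERO1B was measured at 5.04, 5.68 and 5.38 TPM in shCtrl and at 2.97, 2.37 and 1.87 TPM in KD (change -0.72, SE 0.136, adjusted p = 0.00391). The ratio of ERO1A to ERO1B was 5.12, 5.26 and 4.52 in shCtrl and 11.1, 12.8 and 16.6 in KD. CRELD2, an isomerase-like protein secreted under ER stress, was measured at 36.65, 43.04 and 45.35 TPM in shCtrl and at 25.84, 24.28 and 27.19 TPM in KD (change -0.43, SE 0.0857, adjusted p = 0.00505). Its relative CRELD1 had 26.3 ± 0.839 TPM in shCtrl and 19.6 ± 1.5 TPM in KD. The change of CRELD1 was -0.17 (95% interval -0.32 to -0.03), with an adjusted p of 0.0502 by limma. It was called lower in the TPM as deposited (-0.41, adjusted p = 0.00161 by limma), with upper-quartile scaling (adjusted p = 0.0116 by limma) and without KD replicate 3 (adjusted p = 0.0288 by limma).

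SEC61A1 and SEC61B are subunits of the channel through which proteins enter the ER. SEC61A1 had 98.0 ± 1.43 TPM in shCtrl and 88.2 ± 1.76 TPM in KD (SD, n = 3). It was called higher with the trimmed mean scaling (change 0.09, adjusted p = 0.0215 by limma) and lower in the TPM as deposited (change -0.15, adjusted p = 0.00511 by limma). With upper-quartile scaling its change was 0.005 (adjusted p = 0.897 by limma). The call as higher was lost without shCtrl replicate 1, shCtrl replicate 3 or KD replicate 3 (adjusted p = 0.0539, 0.0561 and 0.0573 by limma), and with the replicate number as a block (0.0632). SEC61A1 shares 344 exon bases on opposite strands with RUVBL1, whose change was 0.48. SEC61B had 188.9 ± 6.95 and 163.6 ± 5.80 TPM, and its change of 0.04 (95% interval -0.05 to 0.13, adjusted p = 0.428 by limma) turned to a called fall of -0.21 in the TPM as deposited (adjusted p = 0.00411 by limma). The ratio of SEC61A1 to SEC61B overlapped between the groups, at 0.519 ± 0.0267 in shCtrl and 0.539 ± 0.0135 in KD.

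**Figure D3:**
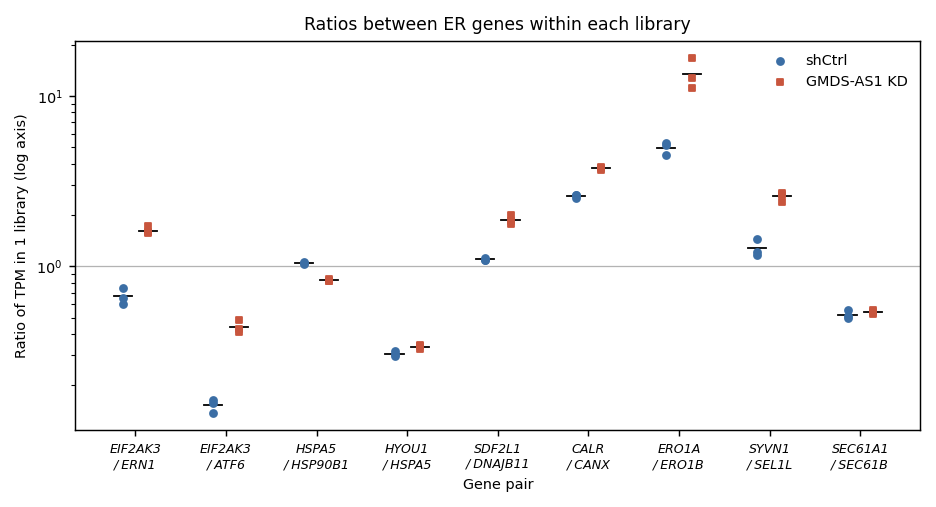
Ratio of TPM between the genes of 9 pairs within each library (log axis), for 3 shCtrl (circles) and 3 GMDS-AS1 KD (squares) libraries, with short bars at the group means. The pairs were chosen after the values had been seen. The ratios of EIF2AK3 to ERN1 and of HSPA5 to HSP90B1 cross 1 between the groups, and the ratio of SEC61A1 to SEC61B overlaps.

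The largest falls were among the genes of ER-associated degradation. SELENOS, a selenoprotein that links the membrane complex to the ATPase p97 (chr15:101270817-101277500, minus strand), was measured at 59.89, 60.26 and 57.69 TPM in shCtrl and at 21.62, 21.60 and 20.52 TPM in KD. The groups were far apart, with a change of -1.20 (SE 0.0419, adjusted p = 1.98e-06), or a fold of 0.436. HERPUD1, a membrane protein that assembles the degradation complex (chr16:56932048-56944863, plus strand), was measured at 107.60, 102.60 and 95.30 TPM in shCtrl and at 44.30, 42.56 and 40.47 TPM in KD. Its change of -1.0 (SE 0.0536, adjusted p = 1.08e-05) was just short of 2-fold before rounding. The promoter of HERPUD1 was the only one of the 29 with both ERSE-II and the CARE core, and the part of these motifs in its fall was not tested.

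SEL1L and SYVN1 (HRD1) form the core of the ubiquitin ligase of this pathway, and their levels separated. SEL1L, the scaffold, was measured at 14.56, 19.47 and 20.31 TPM in shCtrl and at 8.61, 8.07 and 9.48 TPM in KD (change -0.74, SE 0.129, adjusted p = 0.00281). SYVN1, the ligase, was measured at 21.14, 23.70 and 23.65 TPM in shCtrl and at 22.61, 21.75 and 22.59 TPM in KD, and these groups overlapped. With the trimmed mean scaling SYVN1 was called higher (change 0.21, SE 0.0582, adjusted p = 0.0212), and in the TPM as deposited its change was -0.03 (adjusted p = 0.688 by limma). The call was lost without KD replicate 1 or KD replicate 3 (adjusted p = 0.0615 and 0.0539 by limma). SYVN1 shares 398 exon bases on the same strand with FAU, a ribosomal protein gene measured at 1421 to 1469 TPM in shCtrl and at 2560 to 2712 TPM in KD. The part of FAU reads in the SYVN1 value was not tested. The ratio of SYVN1 to SEL1L was 1.45, 1.22 and 1.16 in shCtrl and 2.63, 2.70 and 2.38 in KD.

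The derlins are membrane proteins through which unfolded proteins leave the ER. DERL1 had 43.0 ± 1.13 TPM in shCtrl and 29.7 ± 0.872 TPM in KD (SD, n = 3), a change of -0.28 (adjusted p = 0.00171 by limma). DERL2 had 26.5 ± 2.43 and 20.1 ± 2.29 TPM, and its change of -0.15 did not pass (95% interval -0.39 to 0.09, adjusted p = 0.259 by limma), while it was called lower in the TPM as deposited (-0.39, adjusted p = 0.0145 by limma). DERL3 was listed at 0.02, 0 and 0 TPM in shCtrl and at 0.04, 0.01 and 0.01 TPM in KD. EDEM1, a lectin that picks out glycoproteins for degradation, was measured at 9.85, 5.75 and 6.57 TPM in shCtrl and at 6.94, 6.12 and 5.75 TPM in KD. One shCtrl library stood above the other 5, the groups overlapped, and the wide 95% interval of the change (-0.39 to 0.46, adjusted p = 0.884 by limma) leaves its direction undetermined.

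A further 73 genes of ER protein entry, glycosylation, folding and degradation were examined as neighbours of the pathway. Of these, 28 were lower and 21 higher, with 24 not called and a median change of -0.07, where 25.9% of all genes were lower and 28.5% higher. The balance of these calls turned on the scaling, with 46 lower and 10 higher in the TPM as deposited (40.3% and 16.3% of all genes). With median centring 24 were lower and 25 higher, and the share of all genes was not computed there. Among the largest falls were those of RNF5, a ubiquitin ligase of the ER membrane (-1.07), MLEC, a lectin that binds early glycans (-1.03), and SPCS3, a signal peptidase subunit (-0.85). The largest rises were in CREB3L2, a membrane-bound transcription factor related to ATF6 (0.87), in NPLOC4 (0.82) and VCP (0.76), which act together in the p97 complex that pulls proteins out of the ER, and in the ubiquitin-conjugating enzyme UBE2G2 (0.63). VCP was measured at 90.78, 84.73 and 84.94 TPM in shCtrl and at 124.17, 124.29 and 124.66 TPM in KD, so p97 and its membrane partner SELENOS moved in opposite directions.

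Of the 16 genes of the PERK arm and the integrated stress response, 15 were tested, 12 were lower and 1 was higher, with a median change of -1.38, against 25.9% of all genes lower and 28.5% higher. The largest falls were those of DDIT3, the transcription factor CHOP (-3.35), CHAC1, a glutathione-degrading enzyme (-3.02), DDIT4, an inhibitor of mTORC1 (-2.36), and TRIB3, a pseudokinase that binds ATF4 (-1.93). The change of ATF4 was -0.67, and the gene that rose was EIF2S1, the substrate of PERK (0.55). EIF2AK3 itself, the kinase of this arm, rose as given above.

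Of 6 genes known as substrates of IRE1-dependent RNA decay, 5 were tested, of which 3 were lower (SCARA3 -1.01, HGSNAT -0.85 and SPARC -0.80), beside 25.9% of all genes. SPARC was near the floor, at 1.71, 1.23 and 0.79 TPM in shCtrl and at 0, 0.58 and 0.08 TPM in KD. It reached the 0.5 TPM of the filter in every shCtrl library but in KD only in replicate 2. Its call is therefore not independent of the filter. BLOC1S1 was higher by 0.15 with the trimmed mean scaling, while in the TPM as deposited its change was -0.10. Of 18 chaperones of the cytosol and mitochondria, 17 were tested, 15 were higher and 1 lower, with a median change of 0.71, where 28.5% of all genes were higher and 25.9% lower. HSPA8, the constitutive cytosolic HSP70, was measured at 391.89, 379.52 and 382.24 TPM in shCtrl and at 1281.69, 1283.42 and 1333.86 TPM in KD (change 2.00), while HSPA5, the HSP70 of the ER, fell. HSPA1B rose by 2.67, with its near-identical copy HSPA1A listed at or near 0, so the share of reads between the copies is uncertain. HSPB1 (1.90) and HSPE1 (1.3) were the next largest rises, and mitochondrial HSPA9 was the gene that fell (-0.12).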

How the data were processed

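HCT116 RNA was sequenced in 3 shCtrl and 3 GMDS-AS1 KD libraries. The authors deposited TPM per Ensembl gene, without scaling between libraries, and their methods name Cufflinks and RSEM. The submitters' processing notes list Trimmomatic 0.27, TopHat2 2.1.1 and GRCh38.p13, and DESeq2 is the tool of the authors' own test. The depth of a library cannot be read from TPM, and no counting error was computed. A total of 60662 genes had a value, and 2 had none. The test kept genes that reached 0.5 TPM in 3 or more libraries.

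Libraries were scaled by an unweighted trimmed mean of log ratios on TPM (30% of ratios and 5% of means trimmed). log2(TPM + 1) was modelled in limma (3.58.1, under R 4.3.3) using a variance trend but no block. The fit had first been run on simulated data with few changed genes and no shift between libraries, which cannot vouch for the scaling. A gene was called at a Benjamini-Hochberg adjusted p under 0.05. The labels number the replicates 1 to 3 in each group and do not say whether same-numbered cultures were handled together. Deviations of same-numbered libraries did not correlate (0.0290, -0.0376 and 0.0142), so no block was used in the main fit, though shared handling is not excluded by this. The labels call the samples biological replicates of 1 line, and the p-values set the difference between groups against the spread between these cultures. Whether the cultures of a group came from separate transductions is not stated, so the p-values may not cover variation between transductions.

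The 32 genes and the other lists were chosen with earlier results of these data known. All members were named, and up to 4 genes each way from the other lists, those with the largest change among genes called. Some values under this rule are not reported here. ALG12, FAU, RUVBL1, ATP6V1C2, AC068631.2, PDIA3P1 and the 9 ratios were chosen after their values were seen. Alternatives covered scaling, pseudocount, filter, variance trend, block and each library left out.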

Additional observations from a re-analysis of the deposited data

How the results depend on the processing

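The size of the counts depended on the scaling. Among the 31 ER genes more were lower than higher in each setting, while among the 73 other ER genes the balance turned. In the TPM as deposited, 3 of the 31 ER genes were higher, 26 lower and 3 changed at least 2-fold, and of the 73 other ER genes 10 were higher and 46 lower. With upper-quartile scaling, and likewise with a filter of at least 1 TPM in every library, 3 were higher, 19 lower and 2 changed at least 2-fold. Median centring moved the counts the other way, to 8 higher and 16 lower, and to 25 higher and 24 lower among the other ER genes. With no filter 22 of the other ER genes were higher and 22 lower. A pseudocount of 0.1 also gave 2 genes changed at least 2-fold. Of all genes, 16.3% were higher and 40.3% lower in the TPM as deposited. For the other alternatives this share was not computed, so their counts are not set apart from a shift of all genes. Leaving out 1 library gave 4 to 6 higher, 17 to 18 lower, 1 to 2 changed at least 2-fold (2 without shCtrl replicate 3, KD replicate 1 or KD replicate 2), and 19 to 22 higher and 24 to 27 lower among the other ER genes. The replicate block gave 5 higher, 17 lower and 1 changed at least 2-fold, with 20 higher and 27 lower among the other ER genes, and of the 31 genes the block changed the call of SEC61A1 only.

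In the TPM as deposited the changes that turned were those of MANF (-0.16), CALR (-0.20), P4HB (-0.14), SEC61A1 (-0.15), SEC61B (-0.21), SYVN1 (-0.03) and EDEM1 (-0.18). Upper-quartile scaling turned MANF (-0.001), CALR (-0.05), SEC61B (-0.05) and EDEM1 (-0.04), and the stricter filter turned CALR, SEC61B and EDEM1 (each -0.01). PDIA3 turned with median centring (0.02) and with no filter (0.004), and it was called lower in the TPM as deposited (-0.27), with upper-quartile scaling (-0.12) and with the stricter filter (-0.08). These 3 settings also called CRELD1 lower (-0.41, -0.26 and -0.22). EDEM1 also turned without shCtrl replicate 2 (-0.11), shCtrl replicate 3 (-0.02) or KD replicate 1 (-0.03), in a range from -0.11 to 0.23 over the libraries left out. The calls of P4HB, SEC61A1 and SYVN1 were lost with upper-quartile scaling and with the stricter filter, and those of P4HB and SEC61A1 without the variance trend. The cause was not tested.

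One shRNA and 1 control construct were compared, so an effect of the sequence other than on GMDS-AS1 cannot be told apart, and the target itself was measured at 1.34 to 2.21 TPM in shCtrl and at 0.79 to 0.91 TPM in KD. Messenger levels say nothing here of the spliced form of XBP1, of cleaved ATF6 or of protein.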
